A study of Mus musculus with 6 samples.

Results

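The genes described here are the classical regulators of the cell division cycle: the cyclins of types D, E, A and B, the cyclin-dependent kinases (CDKs) they activate, the CDK inhibitors, the retinoblastoma family of pocket proteins, the E2F transcription factors with their DP partners, and the phosphatases and kinase that set CDK activity. They were chosen by name, as the entries of a deposited gene table whose identifiers belong to these families, and number 37 of 29209 entries. Of the 37, 35 had a test in the table and were among 18543 tested entries. Ccna1 and Ccnb3, a cyclin A and a cyclin B best known from the germ line, were listed without a fold or p-value.

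RNA sequencing compared 2 groups of subcutaneous tumours in NCr nude mice, athymic hosts in which mature T cells are scarce. All tumours grew from injected spleen cells of diseased mir-155LSLtTA mice, whose miR-155 transgene is turned off by doxycycline (DOX). In 3 samples miR-155 was withdrawn by DOX, given in chow at 2.3 mg per kg for 16 hours before harvest. In the other 3 samples no DOX was given and miR-155 stayed overexpressed. All tumours carried the transgene, so loss of miR-155 and exposure to DOX cannot be told apart. Tumours were dispersed to single cells and red cells were lysed before RNA extraction, and host cells may have remained in the samples.

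A D type cyclin with CDK4 or CDK6 phosphorylates the pocket proteins, which then release E2F factors. Free activator E2F factors, each bound to a DP partner, switch on cyclin E, cyclin A and the genes of DNA replication, and cyclin B with CDK1 later drives mitosis. INK4 proteins block CDK4 and CDK6, and in lymphoid cells cyclins D2 and D3 are the D type cyclins most closely tied to proliferation.

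The deposited file gives 1 fold and its p-values per gene, with no value per sample and no depth, so neither the spread of a group nor its overlap with the other can be shown. The table does not state the numerator of its fold, which was taken here to be the DOX group. Under the opposite order every "rose" and "fell" below changes places. A gene was called at an adjusted p under 0.05 in the authors' deposited table. Bulk RNA cannot tell fewer cells of a type from less RNA per cell.

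Of the 35 tested regulators, 13 fell with DOX, or 37.1%, against 5.61% of all tested entries called lower in the authors' deposited table. Another 2 rose, or 5.71%, close to the 5.72% of all tested entries called higher in the authors' deposited table. The other 20 did not pass. At an adjusted p under 0.01, 8 fell and 0 rose, against 3.07% lower and 3.11% higher over all tested entries of the authors' deposited table. Without adjustment, 19 were lower and 3 higher at p under 0.05, against 10.4% and 11.9% of all tested entries in the authors' deposited table. The median log2 fold of the 35 was -1.02 in the authors' deposited table, beside 0.17 for the 15784 tested entries with a finite fold. A fold below 1 stood at 27 of the 35, or 77.1%, against 40.6% of all tested entries in the authors' deposited table. That background counts ratios of 0 (579 entries) and Inf (2180 entries), while all 35 regulators had a finite fold. By adjusted p the leading falls were those of Ccnd2, Tfdp1, Cdk4, Mybl2, Ccnd1 and Ccne1, and the rises were those of Rb1 and Tfdp2. The other D and E type cyclin genes, Ccnd3 and Ccne2, and the kinase genes Cdk6 and Cdk2 did not pass. Beside the 13 falls, markers of macrophages, fibroblasts, neutrophils and endothelial cells stood higher by median log2 fold in the authors' deposited table. The medians were 1.93, 2.10, 4.34 and 1.39, the neutrophil one over the 5 of 7 entries with a finite fold. Most markers in each of these lists were not called, and the part of these cells in the result was not tested.

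**Figure D1:**
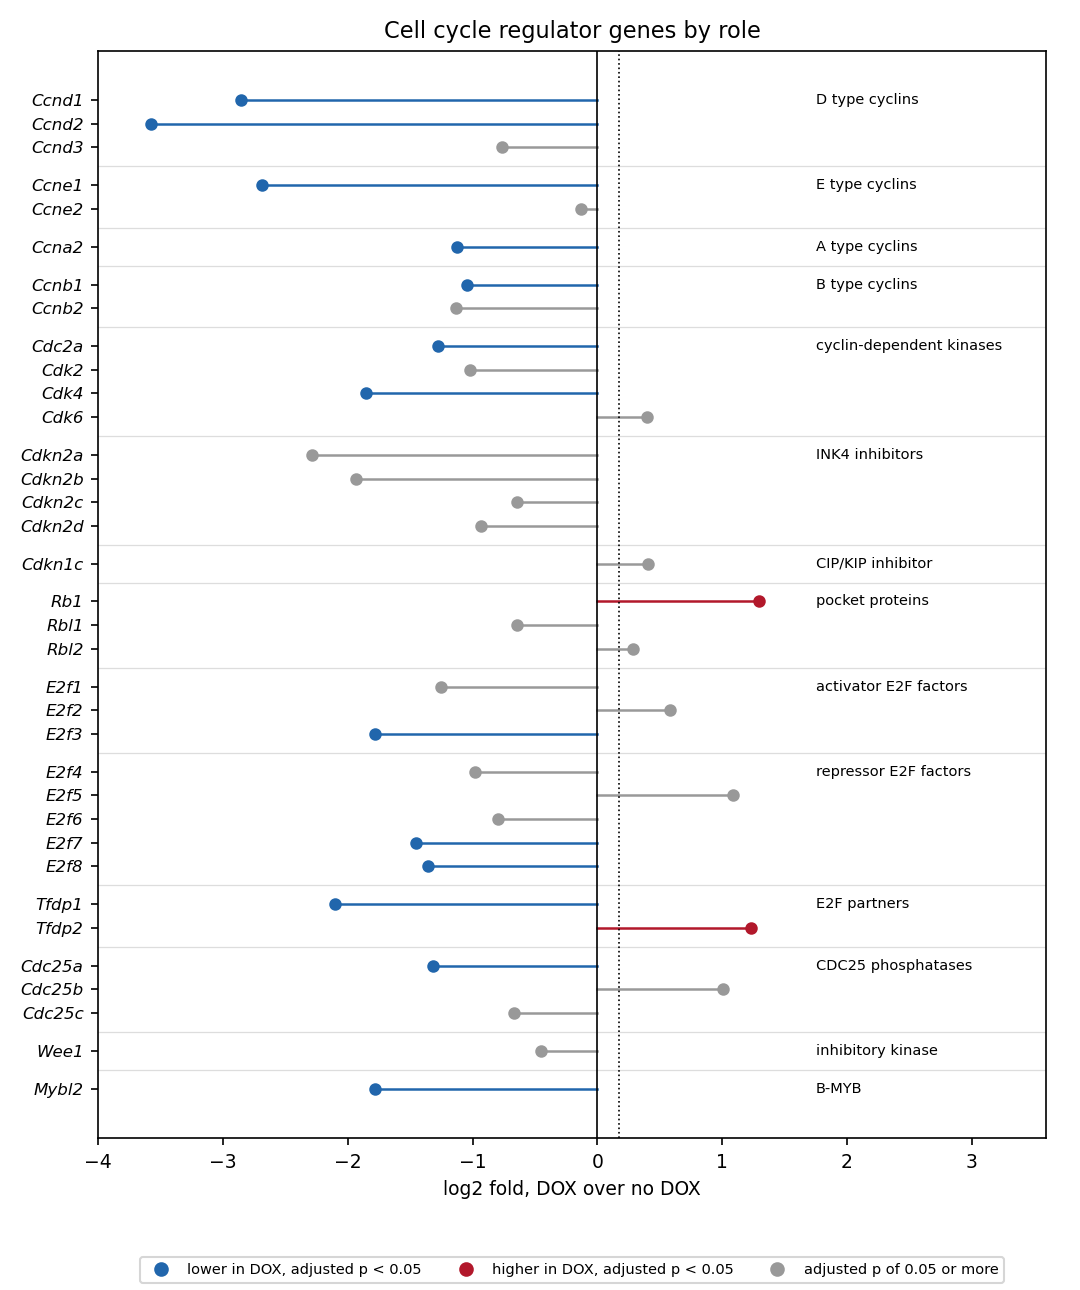
Log2 fold (DOX over no DOX, horizontal axis) of the 35 tested regulators, grouped by role down the page, from the authors' deposited table. Each point is 1 gene, blue where lower and red where higher at an adjusted p under 0.05, grey otherwise, and the dotted line marks the median of all tested entries (0.17). Of the points, 13 are blue, and the 2 red ones are Rb1 and Tfdp2.

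The D type cyclins held the deepest fall. Ccnd2, encoding cyclin D2, had a DOX over no DOX ratio of 0.0836 in the authors' deposited table, a log2 fold of -3.58 (adjusted p = 1.83e-08). By unadjusted p it stood at rank 49 of the 18543 tested entries in the authors' deposited table. Ccnd1, encoding cyclin D1, fell with a log2 fold of -2.85 (adjusted p = 0.00270) in the authors' deposited table. Ccnd3, encoding cyclin D3, had a log2 fold of -0.76 and did not pass (adjusted p = 0.294) in the authors' deposited table. Cyclins D1 and D2 thus passed and cyclin D3 did not, but without values per sample the difference between them was not tested.

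Of the kinases that D type cyclins activate, Cdk4 fell with a log2 fold of -1.85 (adjusted p = 9.44e-05) in the authors' deposited table. Cdk6, its paralogue, had a log2 fold of 0.40 and an adjusted p of 1 in the authors' deposited table. Exons of Cdk4 overlap those of Tspan31 on the opposite strand. Tspan31, which encodes a tetraspanin, also fell, with a log2 fold of -1.55 (adjusted p = 0.0161) in the authors' deposited table. No source used here says whether counting used strand, so whether reads within the overlapping stretch were told apart is unknown. Opposite-strand exons of other genes overlap those of 17 of the 37 regulators. Of these, 7 were called: Ccnd1, Ccnd2, Ccna2, Cdk4, E2f7, E2f8 and Rb1. The share of all genes with such an overlap was not counted.

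Among the cyclins and kinase of S phase entry, Ccne1, encoding cyclin E1, fell with a log2 fold of -2.68 (adjusted p = 0.00276) in the authors' deposited table. Ccne2, encoding cyclin E2, had a log2 fold of -0.13 (adjusted p = 0.907) in the authors' deposited table. Cdk2, the kinase partner of both, was near the threshold at a log2 fold of -1.02 (adjusted p = 0.0575) in the authors' deposited table. Ccna2, encoding the cyclin A of somatic cells, which serves S phase and mitotic entry, fell with a log2 fold of -1.12 (adjusted p = 0.0294) in the authors' deposited table. Its exons overlap those of Exosc9 on the opposite strand, an exosome subunit gene whose own log2 fold was -0.26 (adjusted p = 0.983) in the authors' deposited table.

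Regulators of mitosis were among the falls too. Cdk1, listed under its older name Cdc2a, fell with a log2 fold of -1.28 (adjusted p = 0.00372) in the authors' deposited table. Ccnb1, encoding cyclin B1, fell with a log2 fold of -1.04 (adjusted p = 0.0375) in the authors' deposited table. Ccnb2, encoding cyclin B2, had a similar log2 fold of -1.13 but lay on the other side of the threshold (adjusted p = 0.0668) in the authors' deposited table. Mybl2, encoding B-MYB, which activates mitotic genes with the MuvB complex, fell with a log2 fold of -1.78 (adjusted p = 0.000214) in the authors' deposited table.

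CDC25 phosphatases remove the inhibitory phosphates that WEE1 places on CDK1. Cdc25a fell with a log2 fold of -1.32 (adjusted p = 0.0377) in the authors' deposited table. Cdc25b had a log2 fold of 1.01, on the opposite side of 0 (adjusted p = 0.218), in the authors' deposited table. Cdc25c had a log2 fold of -0.67 (adjusted p = 0.326) in the authors' deposited table. Wee1 itself had a log2 fold of -0.45 (adjusted p = 0.611) in the authors' deposited table, so of these 4 genes Cdc25a alone was called.

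No gene of an INK4 inhibitor passed. Cdkn2a, which encodes p16INK4A and p19ARF from a shared locus, had a log2 fold of -2.29 (adjusted p = 0.596) in the authors' deposited table. Cdkn2b, encoding p15INK4B, had a log2 fold of -1.94 (adjusted p = 0.313) in the authors' deposited table. Both folds are larger than that of Cdk4 and both p-values are far larger too. Cdkn2c (-0.64, adjusted p = 0.495) and Cdkn2d (-0.93, adjusted p = 0.177), encoding p18INK4C and p19INK4D, also had log2 folds below 0 in the authors' deposited table. Cdkn1c, encoding the CIP/KIP inhibitor p57KIP2, had a log2 fold of 0.41 and an adjusted p of 1 in the authors' deposited table. For these 5 inhibitor genes no change was detectable here.

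Among pocket protein genes, Rb1, encoding the retinoblastoma protein, rose with a log2 fold of 1.30 (adjusted p = 0.04999) in the authors' deposited table, at the very edge of the threshold. Exons of Rb1 overlap those of Lpar6, listed as P2ry5, a lysophosphatidic acid receptor gene on the opposite strand. P2ry5 had a log2 fold of 1.03 (adjusted p = 0.0963) in the authors' deposited table. Rcbtb2, whose exons also overlap those of Rb1 on the opposite strand, had a log2 fold of 0.05 (adjusted p of 1) in the authors' deposited table. Rbl1, encoding p107, had a log2 fold of -0.64 (adjusted p = 0.206) in the authors' deposited table. Rbl2, encoding p130, the pocket protein of resting cells, had a log2 fold of 0.29 (adjusted p = 0.823) in the authors' deposited table.

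Among the activator E2F genes, E2f3 fell with a log2 fold of -1.78 (adjusted p = 0.0413) in the authors' deposited table. E2f1 had a log2 fold of -1.25 and lay just outside the threshold (adjusted p = 0.0571) in the authors' deposited table. E2f2 had a log2 fold of 0.58 (adjusted p = 0.726) in the authors' deposited table. A further entry spelled E2F3, listed at a ratio of 0 (adjusted p = 0.937), and an entry named mKIAA4009 that matches E2f1 by accession (adjusted p = 0.866) were tested apart in the authors' deposited table and are not members.

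The atypical repressors E2f7 and E2f8, which bind DNA without a DP partner and are themselves E2F targets, both fell. E2f7 had a log2 fold of -1.46 (adjusted p = 0.00413) in the authors' deposited table. E2f8 had a log2 fold of -1.36 (adjusted p = 0.0118) in the authors' deposited table. The repressors that act with pocket proteins or polycomb complexes did not pass: E2f4 had a log2 fold of -0.98 (adjusted p = 0.111) and E2f5 one of 1.09 (adjusted p = 0.460) in the authors' deposited table. E2f6 had a log2 fold of -0.79 (adjusted p = 0.565) in the authors' deposited table.

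The genes of the E2F dimer partners were called in opposite directions. Tfdp1, encoding DP1, the main partner of E2F factors, fell to a DOX over no DOX ratio of 0.233, a log2 fold of -2.10 (adjusted p = 4.67e-06), in the authors' deposited table. Tfdp2, encoding DP2, rose with a ratio of 2.34, a log2 fold of 1.23 (adjusted p = 0.0322), in the authors' deposited table. Tfdp1 had the second smallest p of the members, at rank 125 of all tested entries, and Tfdp2 stood at rank 1776 in the authors' deposited table. The table gives the calls of each but no test of one against the other.

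**Figure D2:**
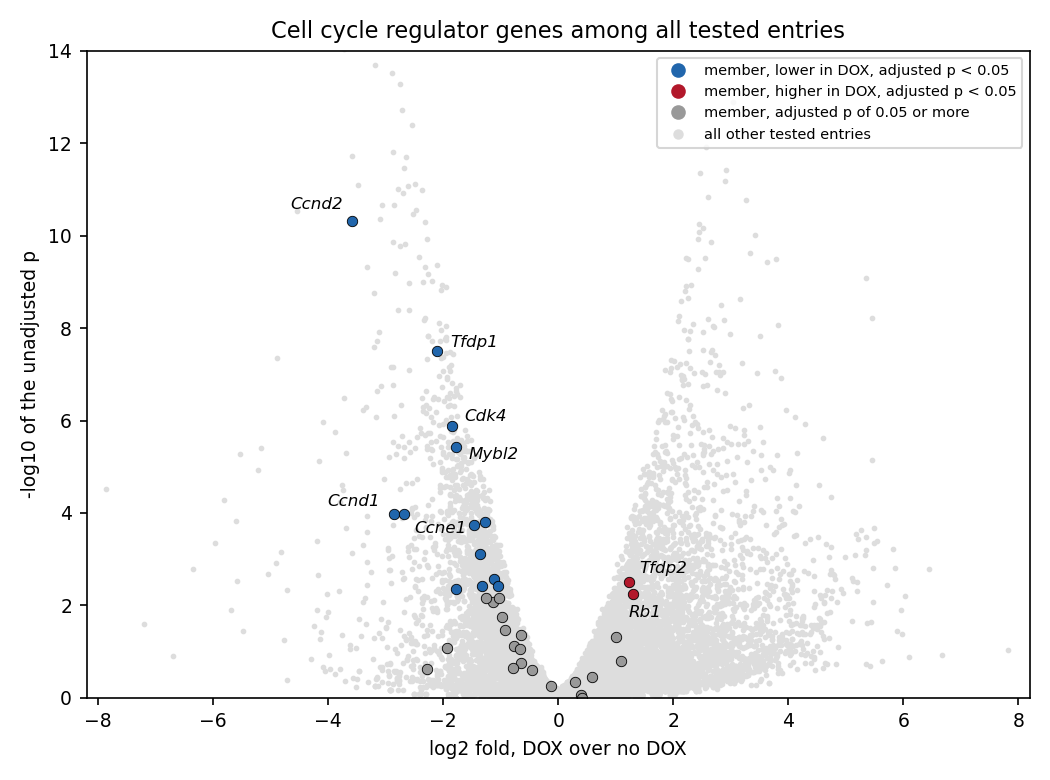
Log2 fold (DOX over no DOX, horizontal axis) against -log10 of the unadjusted p (vertical axis) for tested entries with a finite fold, from the authors' deposited table. The 35 regulators are coloured by call over all other entries in pale grey, and 19 entries beyond the vertical limit of 14 are not drawn. Ccnd2 (-3.58) and Tfdp1 (-2.10) lie highest among the members, and Tfdp2 and Rb1 are the called members on the right.

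Promoters were examined because genes that fell include several described as E2F or MuvB targets. RefSeq promoter windows (GRCm38.p6, 250 bases before to 50 after a start site) were held for 27 of the 37 genes, in 34 windows. Both strands were searched for the E2F words TTTCGCGC, TTTGCCGC, TTTCCCGC and TTTGGCGC, and for the cell cycle homology region (CHR) words TTTGAA and TTCGAA. E2F words were found for 9 of the 27 genes (33.3%), against 4.32% of 11503 tested genes with a window and 2.26% of all 32851 windows. The 27 include the untested Ccna1 and Ccnb3, which held no E2F or CHR word. Of 10 genes that fell and had a window, 5 held one: Cdc2a, Tfdp1, Cdc25a, E2f7 and E2f3. Of 14 genes that were not called, 4 held one: Cdk2, Cdkn2a, Rbl1 and E2f2. The windows of Tfdp2, which rose, held none. CHR words were found for 8 of the 27 (29.6%), against 16.8% of tested genes and 19.2% of all windows. They were held by 3 of the 10 genes that fell and 5 of the 14 that were not called. These words are matches of letters in a window and not evidence of binding, and Ccne1, Cdk4, Ccnb1 and Mybl2, which fell, held neither kind. The window of Cdk1 is shown whole because it holds both kinds, with E2F and CHR words in capitals (chr10:69352863-69353162, minus strand, 5′ to 3′).
Cdk1: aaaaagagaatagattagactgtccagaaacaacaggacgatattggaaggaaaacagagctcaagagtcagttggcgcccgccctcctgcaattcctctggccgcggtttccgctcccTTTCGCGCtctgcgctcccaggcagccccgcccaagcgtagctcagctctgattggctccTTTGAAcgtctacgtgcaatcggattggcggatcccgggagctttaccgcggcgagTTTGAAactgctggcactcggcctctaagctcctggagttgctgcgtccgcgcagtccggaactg

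In the Cdk1 window the E2F word begins at position -131 from the start site, and the CHR words begin at -71 and -15. Stretches of 60 bases around the words of other regulators are shown so that the fallen Tfdp1, Cdc25a, E2f7 and E2f3 can be read beside Cdk2 and Rbl1, which were not called, and Ccnb2 with a CHR word. They lie at chr8:13338682-13338741 (Tfdp1, plus strand), chr9:109875486-109875545 (Cdc25a, plus), chr10:110745215-110745274 (E2f7, plus), chr13:29986041-29986100 (E2f3, minus), chr10:128705158-128705217 (Cdk2, minus), chr2:157204519-157204578 (Rbl1, minus) and chr9:70421517-70421576 (Ccnb2, minus) of GRCm38.p6.
Tfdp1: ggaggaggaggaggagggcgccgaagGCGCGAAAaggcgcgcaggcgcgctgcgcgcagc
Cdc25a: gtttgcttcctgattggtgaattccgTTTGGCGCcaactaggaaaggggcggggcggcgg
E2f7: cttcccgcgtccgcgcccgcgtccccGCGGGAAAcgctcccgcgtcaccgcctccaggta
E2f3: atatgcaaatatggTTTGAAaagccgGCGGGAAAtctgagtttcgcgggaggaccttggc
Cdk2: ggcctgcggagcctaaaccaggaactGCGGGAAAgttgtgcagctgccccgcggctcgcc
Rbl1: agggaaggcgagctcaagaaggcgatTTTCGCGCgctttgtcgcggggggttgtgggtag
Ccnb2: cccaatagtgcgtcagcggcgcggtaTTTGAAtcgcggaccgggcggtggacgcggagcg

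Capitals that read GCGCGAAA or GCGGGAAA are E2F words on the other strand. Tfdp1, at a log2 fold of -2.10, and Rbl1, at -0.64 and not called in the authors' deposited table, both carry TTTCGCGC, so the same word stands before genes on either side of the threshold.

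The microRNA that was withdrawn pairs with its targets through its seed, bases 2 to 8, shown in capitals in the mature sequence (RefSeq, GRCm38.p6). Wee1 has been reported as a target of miR-155. The sites below are shown for the member that rose and holds a match, Tfdp2, for the member that fell and holds one, Cdk1, and for the 8-mer matches of Wee1 and E2f2. Capitals mark the bases that match the seed, with the A that faces base 1 where present.
mmu-miR-155-5p: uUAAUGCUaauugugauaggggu
Tfdp2 first site: aatagcatctccatgtGCATTAAaaa
Tfdp2 second site: agggtgtgtctaggaAGCATTAgttt
Cdk1: atattaaagggttacAGCATTAggag
Wee1: tcttgctgtaaaactAGCATTAAaca
E2f2: ttgttttaagtttgtAGCATTAAatt

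In the longest 3′ UTR annotated per gene (GENCODE M21), a match to AGCATTA or GCATTAA was present in 6 of the 37 regulators, or 16.2%, against 13.5% of 14084 tested genes, so the share was near the background. The 37 include the untested Ccna1 and Ccnb3, which held no match. The 6 were Cdk1, Rbl1, E2f2, E2f6, Tfdp2 and Wee1. Tfdp2 alone of them rose, and its 3′ UTR of 5675 bases holds both of its matches. Cdk1 fell, and Rbl1, E2f2, E2f6 and Wee1 were not called in the authors' deposited table. Neither Rb1 nor any D type cyclin gene held a match.

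Many genes known to respond to E2F factors fell beside the regulators. Of 28 tested entries for 26 genes of DNA replication and G1/S that are reported E2F targets, 17 fell and 0 rose in the authors' deposited table, with a median log2 fold of -1.87. Mcm2, of the replicative helicase (-2.71), the ribonucleotide reductase genes Rrm1 (-1.95) and Rrm2 (-1.70) and the sliding clamp gene Pcna (-1.94) had the smallest adjusted p-values in the authors' deposited table. Of 24 G2/M genes reported as DREAM or B-MYB targets, 8 fell and 0 rose in the authors' deposited table, with a median log2 fold of -0.73. The mitotic kinase genes Aurkb (-1.57), Plk1 (-1.61) and Aurka (-1.56) and the kinesin gene Kif20a (-1.34) led in the authors' deposited table. The background for these counts is the same 5.61% lower and 5.72% higher.

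Among other regulators of CDK and cyclin activity, 1 of 6, 2 of 20 and 1 of 7 entries in the lists that follow were called, all lower, against 5.61% of all tested entries lower and 5.72% higher. Of 6 genes for the CDK-activating kinase, the CKS subunits and the WEE1-like kinase, Cks1b, a CDK subunit that also serves degradation of CDK inhibitors, fell (-2.01, adjusted p = 0.000259) in the authors' deposited table. Its paralogue Cks2 had a log2 fold of -1.06 (adjusted p = 0.0670) in the authors' deposited table. The median over these 6 genes was -0.53 in the authors' deposited table. Of 20 entries for 19 ubiquitin ligase factors, Ube2s (-1.34, adjusted p = 0.00330) and Anapc5 (-1.13, adjusted p = 0.0116), both of the anaphase-promoting complex pathway, fell and 0 rose in the authors' deposited table. Of 7 entries for the 5 MuvB core genes, Rbbp4 fell (-1.13, adjusted p = 0.0190) in the authors' deposited table and 0 rose. Lin9, Lin37, Lin52 and Lin54 were not called.

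Among other cyclins and CDKs, in the lists that follow, the calls were higher. They were 3 of 13 and 3 of 17 entries, against 5.72% of all tested entries higher and 5.61% lower. Of 13 other cyclin genes, 3 rose and 0 fell in the authors' deposited table: Ccnl1 (1.82, adjusted p = 0.000523) and Ccnl2 (1.51, adjusted p = 0.000989), whose products act in splicing, and Ccnt2 (1.24, adjusted p = 0.0155), a subunit of the elongation factor P-TEFb. Of 17 entries for 16 other CDK genes, 3 rose and 0 fell in the authors' deposited table: Cdk14, listed as Pftk1 (3.97, adjusted p = 4.96e-05), Cdk12, listed as Crkrs (1.70, adjusted p = 0.00233), an RNA polymerase II kinase, and Cdk17, listed as Pctk2 (1.24, adjusted p = 0.0255). The median log2 folds of these lists were 0.41 and 0.39 in the authors' deposited table, beside the 0.17 of all tested entries. The difference between these lists and the regulators was not tested.

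**Figure D3:**
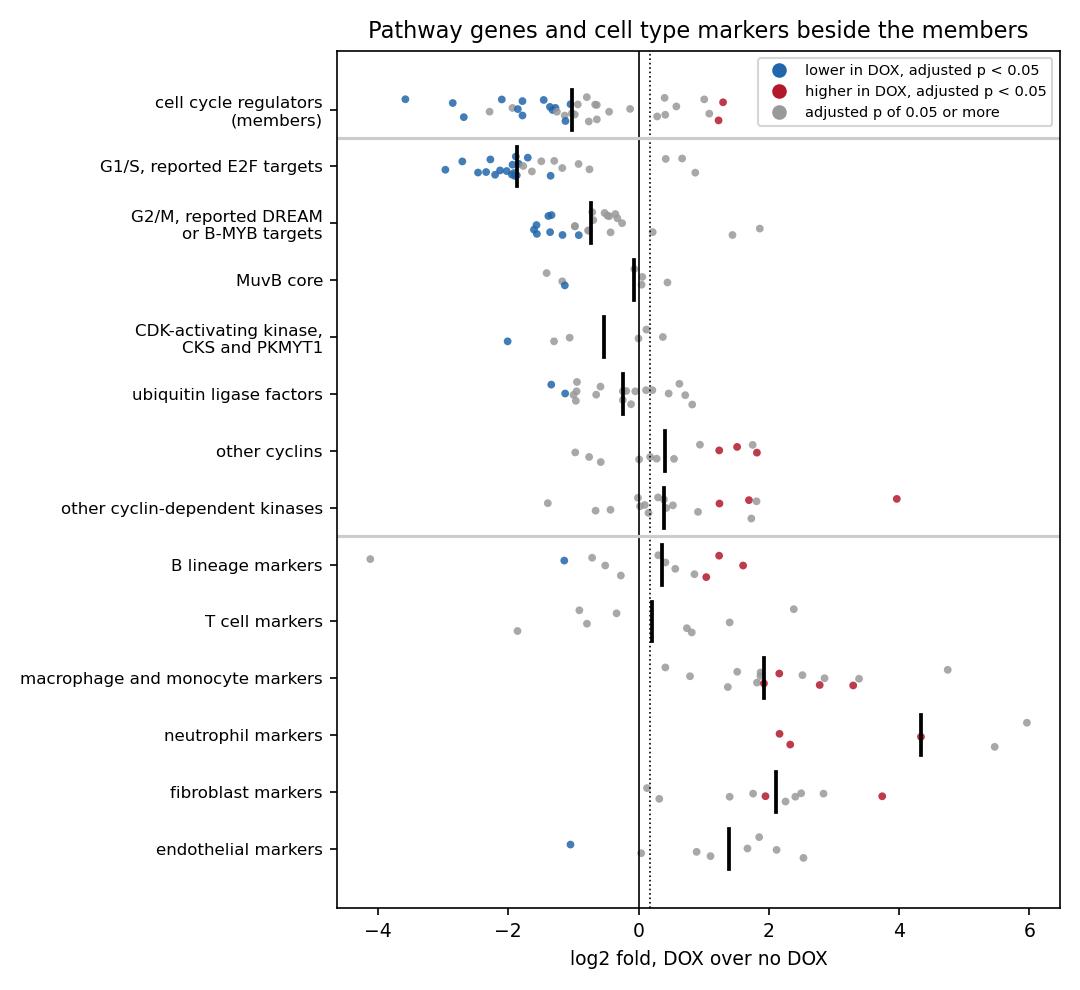
Log2 fold (DOX over no DOX, horizontal axis) of entries with a finite fold in the members, the pathway lists and the cell type marker lists (rows), from the authors' deposited table. Points are genes coloured by call, black bars are list medians and the dotted line is the median of all tested entries. The G1/S genes have a median of -1.87, the members one of -1.02, and macrophage and monocyte markers one of 1.93.

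Markers of several cell types, the B lineage among them, were read in the same comparison. Their calls stand against 5.72% of all tested entries called higher and 5.61% called lower. Of 15 markers of macrophages and monocytes, all stood above 1, with a median log2 fold of 1.93, and 4 rose in the authors' deposited table: Csf1r (2.16), Mertk (3.30), Ccr2 (2.78) and Apoe (1.93). All 10 fibroblast markers had a fold above 1 and Postn (3.74) and Pdgfra (1.95) rose, with a median of 2.10 in the authors' deposited table. Of 7 neutrophil markers, Csf3r (4.34), Cxcr2, listed as Il8rb (2.33), and Mmp9 (2.17) rose in the authors' deposited table, and the median over the 5 with a finite fold was 4.34. Camp, listed at Inf, and Mpo, listed at a ratio of 0, were left out of that median and were not called. Of 12 B lineage markers, Ebf1 (1.61), Cd72 (1.24) and Blnk (1.04) rose and Igll1 (-1.14) fell, with a median of 0.36 in the authors' deposited table. The 8 markers of T cells, with 4 on each side of 1 and a median of 0.20, had no call, and of 8 endothelial markers Eng alone was called, lower (-1.04), with a median of 1.39 in the authors' deposited table. The table gives no level, so whether a defining marker is absent from the tumours could not be read. The part of host cells in the changes of the regulators was not tested.

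Transcript length and GC content also went with direction over the whole table. Across 12524 tested genes with a finite fold and a GENCODE transcript, the log2 fold had a Spearman's rho of 0.28 with length and -0.24 with GC. Across the 35 regulators these were 0.12 and -0.23. Genes are not independent replicates, and all values share the same libraries. The 13 that fell had a median transcript length of 3651 bases, against 2275 bases for the 960 of the 12524 genes called lower and 3162 bases for all 12524. Tfdp2 and Rb1, which rose, have transcripts of 7354 and 4656 bases, against a median of 4828 for the 738 of the 12524 genes called higher. The part of length and GC in the calls was not tested.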

How the data were processed

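RNA from 6 tumour samples, 3 with DOX and 3 without, was compared. The submitters' processing notes name RSEM, DESeq and build mm9, with no version. The authors deposited a table with a linear fold (a ratio), its log2 and unadjusted and adjusted p-values per gene, per the file headers. The deposited log2 column holds cells that are not numbers and was not used, and each log2 fold credited to the authors' deposited table was computed here from its ratio. No source used here gives the fold's numerator. Recomputing the Benjamini-Hochberg adjustment over the 18543 tested entries gave the deposited values to within 2.09e-06. No test across samples was run, and depth is unknown. No label states that replicates are separate animals, so the p-values reflect sample-to-sample spread that may be technical.

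Members matched a fixed name pattern, and 2 further matching entries are not reported here. Members and gene lists were chosen with earlier results of these data known, so counts over them are descriptions. Every tested member is named, with up to 4 called entries of each pathway list by adjusted p and all called markers. Overlapping neighbours, Cks2, Ccnf, Camp, Mpo and the MuvB genes without a call were named after their values were seen. Ratios of 0 (579 entries) and Inf (2180) enter counts and not medians. Entries were matched to current symbols by symbol, RefSeq accession or unique synonym (15164 of 18543). The reference is GRCm38, not mm9, and served for sequence, length and overlap. Adjustments were checked on simulated p-values. Python 3.11.15, pandas 2.3.3 and scipy 1.17.1 were used.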

Additional observations from a re-analysis of the deposited data

How the results depend on the processing

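Stricter thresholds lowered the counts of calls, by construction. Over all tested entries, 5.61% were called lower and 5.72% higher, and 3.07% and 3.11% at an adjusted p under 0.01. At an unadjusted p under 0.05 these shares were 10.4% and 11.9%, and shares under the other settings were not counted. Among the regulators, 13 falls and 2 rises became 8 and 0 at an adjusted p under 0.01 and 3 and 0 under Bonferroni over 18543 entries, where Ccnd2, Tfdp1 and Cdk4 remained. Among the pathway lists, 29 falls became 19 and 5, and 6 rises became 4 and 1. The regulator counts stayed within 1.5 times at an adjusted p under 0.1 (16 and 2), with finite folds adjusted alone (15 and 2), with protein-coding matches adjusted alone (13 and 2), with at least a 2-fold change required (13 and 2), and at an unadjusted p under 0.05, a setting chosen after seeing the data (19 and 3). Centring on the median of all tested entries moved the members' median log2 fold to -1.20, and no called gene named here changed sign. E2F words were held by 4 rather than 9 genes when searched as GCGCGAAA, which is TTTCGCGC on the other strand, or TTCGCGCC, a word outside the main set, and the 4 include an untested gene that is not among the 9. The 8-mer seed match, a stricter word by construction, was held by 2 rather than 6 genes. The deposited log2 column was not run as an alternative because it holds cells that are not numbers. No paired analysis was possible because the table holds no value per sample, and for the same reason no sample could be left out. Depth could not be read.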
